A study of Mus musculus with 24 samples.

Results

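The genes described are Retnla, Chil3, Chil4 and Chil1, which encode secreted products linked to the alternative activation of macrophages. They were chosen by name, and all 4 were found among the 35770 gene names of the table, where Chil1 stands under its other symbol Chi3l1. Expression was measured by RNA sequencing in primary murine bone marrow-derived macrophages (BMDMs) of C57BL/6 mice, grown with 20 ng/mL M-CSF, in 24 libraries. There were 8 groups of 3 libraries, from 4 media each given with vehicle or with 100 nM CDDO-Me, a synthetic oleanane triterpenoid, for 24 h. The control medium (media/vehicle and media/CDDO-Me) had been kept without cancer cells. The conditioned media (CM) had been on LL2 cells, a Lewis lung carcinoma line of the mouse, for 48 h and made up 75% of the final volume. They came from unedited cells (WT/vehicle and WT CM/CDDO-Me), from KEAP1 KO cells (KEAP1 KO/vehicle and KEAP1 KO CM/CDDO-Me) and from NRF2 KO cells (with vehicle NRF2 KO/vehicle, with the drug NRF2 KO CM/CDDO-Me). KEAP1 and NRF2 had been edited with CRISPR in the cancer cells and not in the macrophages, and the labels name 1 line per genotype. The sources do not say whether the 3 samples of a group came from separate mice, so the p-values measure the spread between these samples, which may be technical.

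Retnla encodes resistin-like molecule alpha (FIZZ1), a small cysteine-rich secreted protein. Chil3 (Ym1), Chil4 (Ym2) and Chil1 encode chitinase-like proteins, which share the fold of the chitinases but do not cleave chitin. In mouse macrophages, IL-4 and IL-13 act through receptors that contain Il4ra and through the transcription factor STAT6, and Retnla and Chil3 are among the best known genes that this signal turns on, beside Arg1. Interferon gamma drives the opposed, classical activation.

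In GRCm39, the build of the deposited table, Retnla lies at chr16:48662895-48664824 on the plus strand, between Retnlb and Retnlg of the same family. Chil3 at chr3:106054870-106074880 and Chil4 at chr3:106108806-106126823 lie close to each other on the minus strand. Of their family, Chia1 and then Chil5 lie on one side and Chil6 on the other. Chil1 lies apart from them at chr1:134109889-134117919 on the plus strand. Chil3 and Chil4 are near copies: 1139 of 1194 aligned bases of their coding sequences were identical (95.4%), against 74.9% for Chil3 and Chia1, 57.3% for Chil3 and Chil1, and 83.5% for Retnla and Retnlg. The stretches of coding bases 500 to 559 are shown because they hold the densest differences between these genes, 10 in 60 bases, which are in capitals.
Chil3: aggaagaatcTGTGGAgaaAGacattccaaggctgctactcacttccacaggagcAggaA
Chil4: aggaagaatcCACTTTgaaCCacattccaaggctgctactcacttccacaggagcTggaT

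The longest run without a difference was 136 bases, from coding base 987 to 1122, and is shown as the longest stretch that does not tell the 2 genes apart.
Chil3 and Chil4: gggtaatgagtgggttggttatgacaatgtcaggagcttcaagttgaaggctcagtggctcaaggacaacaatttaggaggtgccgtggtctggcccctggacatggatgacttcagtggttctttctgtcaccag

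Of the words of 31 bases in the Chil3 transcript, 44.8% also occurred in transcripts of other genes, chiefly Chil4 and the predicted gene Gm6522. The share was 35.4% for Chil4, 5.27% for Retnla and 3.70% for Chil1. The authors' counting by pseudo-alignment splits reads of shared words between genes, so the levels of Chil3 and Chil4 are less certain than that of Retnla. Gm6522 itself was listed at 0 in 21 of 24 libraries and reached 0.0964 TPM (transcripts per 1000000 transcripts), so that hardly any signal was assigned to it.

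The 250 bases before the annotated start of each of the 3 genes that responded are shown next, since these genes moved together. Capitals mark matches to sites of STAT6, named above, and also of other STAT factors and of C/EBP factors. The STAT sites are the letters TTC and GAA with 4 bases between them, the spacing bound by STAT6, or with 3, that of other STAT factors. They read the same on both strands. The C/EBP site is TTGCNNAA, searched on both strands.
Retnla, chr16:48662645-48662894, plus strand: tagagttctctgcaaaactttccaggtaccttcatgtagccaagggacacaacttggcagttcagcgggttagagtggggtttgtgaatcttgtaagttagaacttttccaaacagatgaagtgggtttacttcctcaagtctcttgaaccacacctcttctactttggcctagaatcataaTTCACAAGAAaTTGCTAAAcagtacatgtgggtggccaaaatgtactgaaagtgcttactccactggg
Chil3, chr3:106074881-106075130, minus strand: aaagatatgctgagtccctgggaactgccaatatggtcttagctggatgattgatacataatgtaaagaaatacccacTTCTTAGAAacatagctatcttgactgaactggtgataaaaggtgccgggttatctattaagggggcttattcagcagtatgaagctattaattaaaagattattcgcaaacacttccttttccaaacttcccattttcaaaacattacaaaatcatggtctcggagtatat
Chil4, chr3:106126824-106127073, minus strand: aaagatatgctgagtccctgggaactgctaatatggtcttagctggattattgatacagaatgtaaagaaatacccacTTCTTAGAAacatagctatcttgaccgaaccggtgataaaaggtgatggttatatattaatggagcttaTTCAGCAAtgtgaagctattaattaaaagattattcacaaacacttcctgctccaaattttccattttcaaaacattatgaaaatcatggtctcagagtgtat

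The Retnla window held TTCACAAGAA at -68 to -59 from the start and TTGCTAAA right after it, at -57 to -50. The Chil3 and Chil4 windows were identical in 229 of 249 aligned bases (92.0%) and shared TTCTTAGAA at the same place, -172 to -164. The C/EBP match of Chil4, on the opposite strand at -103 to -96, had no counterpart in Chil3. Such letters are common: of 21770 promoter windows of the same length, 5.89% held the STAT6 letters, 7.70% the other STAT letters and 9.34% TTGCNNAA. No match to the antioxidant response element TGACNNNGC, searched on both strands and present in 9.69% of windows, lay in the 3 windows shown. RefSeq places the start of Retnla 77 bases and that of Chil4 28 bases further downstream than GENCODE, and that of Chil3 at the same base. A match of letters is a description of the sequence and not a measured binding site.

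Retnla was read in the 6 libraries of BMDMs given WT CM or KEAP1 KO CM with vehicle and in no other library. Its level was 1990, 1753 and 3262 TPM in the WT/vehicle libraries and 1504, 1390 and 1883 TPM in the KEAP1 KO/vehicle libraries. It was listed at 0 in all 18 libraries of the other 6 groups. These values separate the 2 groups from the rest without overlap, and they made Retnla one of the most abundant transcripts, at rank 21 to 69 of 35770 gene names with WT CM and rank 65 to 107 with KEAP1 KO CM. No other gene was above 1 TPM in all 6 of these libraries and listed at 0 in all 18 others. A value of 0 here is the authors' estimate. None of 10 genes used in nearly every cell, among them Actb, Gapdh and Polr2a, was listed at 0 in any library, and the lowest of their values was 33.7 TPM.

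Chil3 followed the same split from a low but measurable base. Its level was 461, 668 and 1257 TPM in the WT/vehicle libraries and 592, 592 and 1196 TPM in the KEAP1 KO/vehicle libraries. In the media/vehicle libraries it was 1.09, 3.87 and 2.31 TPM, and over the 18 libraries of the other 6 groups it ran from 0.660 to 4.56 TPM with a median of 1.80 TPM. The 6 high libraries and the 18 low ones were thus far apart. Replicate 3 was the highest library in both of the high groups, and replicate 2 was the highest in all 6 of the low groups, with a spread within groups of 43.4% to 72.7% of the mean (coefficient of variation).

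Chil4 was a minor transcript with the same pattern. Its level was 6.33, 5.12 and 6.94 TPM in the WT/vehicle libraries and 7.98, 7.99 and 8.26 TPM in the KEAP1 KO/vehicle libraries. It was listed at 0 in 17 of the other 18 libraries, and WT CM/CDDO-Me replicate 2 held 0.0291 TPM. Per length, Chil4 stood at 0.552% to 1.37% of the level of Chil3 in the same library. The ratio was lowest in replicate 3 of both groups, the libraries with the most Chil3. Chil3 and Chil4 share part of their sequence, and how much of the level of Chil4 came from reads of Chil3 was not tested.

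Chil1 was near the limit of what was read. Its highest level was 0.322 TPM, in media/vehicle replicate 1, and it was listed at 0 in 10 of 24 libraries. The 8 groups overlapped at every step of the order of their means, from 0.195 ± 0.170 TPM (SD, n = 3) in WT/vehicle to 0.00779 TPM in NRF2 KO/vehicle. It did not pass the filter for testing (TPM above 1 in at least 3 libraries). Without that filter, the lowest adjusted p of Chil1 over 17 comparisons was 0.31 (limma).

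**Figure D1:**
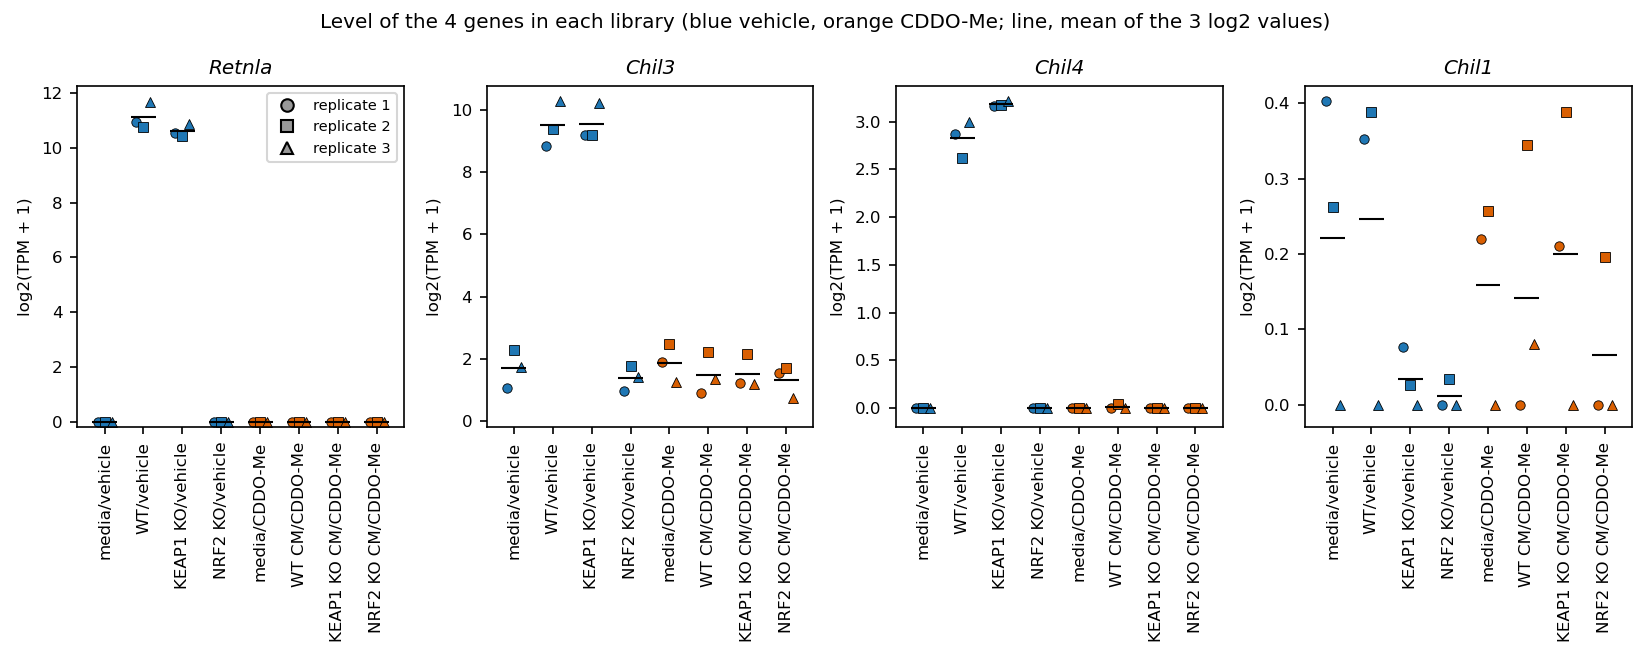
Level of Retnla, Chil3, Chil4 and Chil1 in each of 24 libraries, as log2(TPM + 1) on the vertical axis, by group on the horizontal axis. Points are libraries, shapes are replicate numbers, blue is vehicle, orange is CDDO-Me, and lines are means of the 3 log2 values. Retnla, Chil3 and Chil4 stand high in WT/vehicle and KEAP1 KO/vehicle only, and Chil1, on an axis of its own, reaches 0.322 TPM.

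The order of the group means was WT/vehicle, then KEAP1 KO/vehicle, then all other groups for Retnla and Chil3. For Chil4 it was KEAP1 KO/vehicle, then WT/vehicle, then the others. WT/vehicle and KEAP1 KO/vehicle overlapped in Retnla and in Chil3, and did not overlap in Chil4. For Chil3 the order of the low groups ran from media/CDDO-Me at 2.89 ± 1.59 TPM (SD, n = 3) to NRF2 KO CM/CDDO-Me at 1.62 ± 0.850 TPM, and each neighbour in that order overlapped the next.

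To ask what cancer CM did to the macrophages under vehicle, each CM was compared with media/vehicle. Differences are on the scale log2(scaled TPM + 1), where the TPM were scaled between libraries by trimmed means (TMM). They were tested with limma over 13661 genes, with Benjamini-Hochberg adjustment over all of them and an adjusted p under 0.05 as the threshold. With WT CM, 3 of the 3 members tested passed and were higher, in a comparison in which 7.23% of all genes tested passed. Mean Chil3 was 796 ± 413 TPM (SD, n = 3) against 2.43 ± 1.39 TPM, 328 times as high, with a log2 difference of 7.87 (SE 0.44) and adjusted p = 2.7e-10. For Retnla, at 2335 ± 811 TPM against a group listed at 0, no fold is given, and the adjusted p was 1.3e-19. For Chil4 it was 3.9e-12. Retnla and Chil4 passed the filter on low values only through WT/vehicle and KEAP1 KO/vehicle, the groups in which they were high, so the count of members adds nothing to the values. In the 24-library fit the spread of Retnla and Chil4 is averaged over groups that are all at 0, which makes it small. With only the 6 libraries compared, limma's adjusted p was 1.6e-06 for Retnla, 7e-05 for Chil3 and 0.00012 for Chil4.

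With KEAP1 KO CM, 3 of 3 members again passed and were higher, beside 8.06% of all genes. Chil3 stood at 793 ± 349 TPM (SD, n = 3), 327 times the media/vehicle mean, with a log2 difference of 7.84 (SE 0.44) and adjusted p = 2.9e-10. The adjusted p was 3.6e-19 for Retnla and 7.6e-13 for Chil4, with the limits given for WT CM. Over 17 alternative fits, the highest adjusted p in limma was 6.4e-08 for Retnla, 6e-05 for Chil3 and 3.7e-05 for Chil4. This comparison shares its media/vehicle libraries with that of WT CM. In bulk RNA, more cells that express a gene and more RNA per cell cannot be told apart.

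With NRF2 KO CM, Retnla and Chil4 were listed at 0 in both groups, which leaves Chil3 as the only member with a test. It did not pass, in a comparison in which 0.00732% of all genes passed. Chil3 was 0.966, 2.43 and 1.66 TPM with NRF2 KO CM, inside the range with control medium, with a log2 difference of -0.30 (95% interval -1.23 to 0.62). Tested directly, WT/vehicle was higher than NRF2 KO/vehicle in 3 of 3 members, beside 10.6% of all genes. Chil3 was 472 times as high, with a log2 difference of 8.17 (SE 0.44) and adjusted p = 1.6e-10, and the adjusted p was 1.3e-19 for Retnla and 3.4e-12 for Chil4. The limits on Retnla and Chil4 given for WT CM hold here too. Over 17 alternative fits, the highest adjusted p in limma was 4.4e-05 for Retnla, 0.00068 for Chil3 and 0.0032 for Chil4. NRF2 KO/vehicle replicate 3 held the fewest genes above 0 of all libraries, 15702 against up to 18993. Without it and the CDDO-Me library of NRF2 KO CM with the same number, the 3 members passed as well.

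Whether the KEAP1 genotype of the cancer cells mattered was asked by comparing KEAP1 KO/vehicle with WT/vehicle. In this comparison 0 of 3 members and 0 of 13661 genes (0%) passed, and 350 genes had an unadjusted p under 0.05 (limma). Mean Retnla was 2335 ± 811 TPM (SD, n = 3) in WT/vehicle against 1592 ± 258 TPM in KEAP1 KO/vehicle, and the ranges overlapped. The log2 difference was -0.58 (SE 0.17, 95% interval -0.94 to -0.22), with an unadjusted p of 0.0032 in the limma fit and an adjusted p of 1. It was -0.29 without WT/vehicle replicate 3, the library with the most Retnla, and its unadjusted p was 0.063 with only the 6 libraries compared. For Chil3 the log2 difference was -0.03, with an interval from -0.96 to 0.89. Chil4 went the other way. Its lowest KEAP1 KO/vehicle library, at 7.98 TPM, lay above the highest WT/vehicle library, at 6.94 TPM, with a log2 difference of 0.29 (SE 0.12), an unadjusted p of 0.024 and an adjusted p of 1. The unadjusted p of Chil4 in limma was 0.068 with only the 6 libraries compared. Over the alternatives it ran from 0.00097 with no filter to 0.37 with a pseudocount of 0.1. With array weights, which give less weight to libraries that lie further from the model, both passed, with adjusted p = 0.0071 for Retnla and 0.04 for Chil4, in a fit in which 975 genes passed. No other alternative gave either a call.

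**Figure D2:**
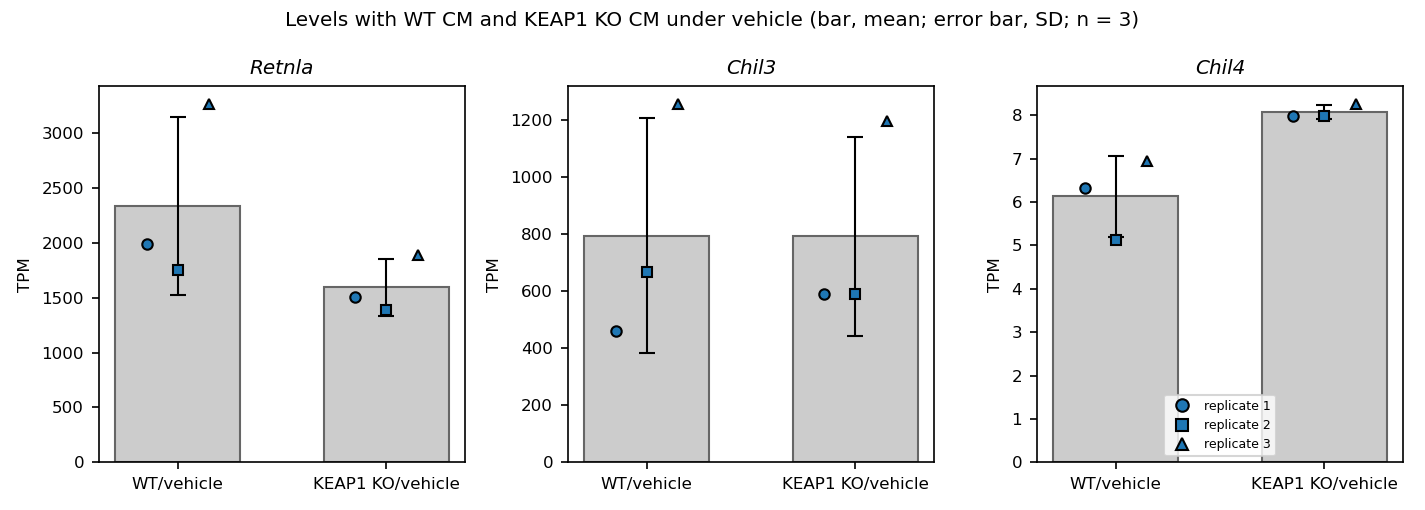
TPM of Retnla, Chil3 and Chil4 (vertical axes from 0) in WT/vehicle and KEAP1 KO/vehicle BMDMs, with points as libraries, bars as means and error bars as SD (n = 3). The groups overlap for Retnla and Chil3, while the KEAP1 KO/vehicle libraries of Chil4, from 7.98 to 8.26 TPM, lie above the WT/vehicle libraries, from 5.12 to 6.94 TPM.

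The effect of CDDO-Me was asked in each CM. With WT CM, all 3 tested members were lower with CDDO-Me than with vehicle, beside 27.9% of all genes that passed in either direction. Retnla went from 1753 TPM or more in every library to 0 in every library. Chil3 went from 796 TPM to 0.856, 3.70 and 1.56 TPM, 390 times lower on the means, with a log2 difference of -7.94 (SE 0.44) and adjusted p = 3.5e-11. The adjusted p was 1.3e-19 for Retnla and 6.6e-13 for Chil4. For both, the spread was averaged over groups at or near 0. Both also passed the filter only through the groups high under vehicle, so the count of members adds nothing to the values. Over 17 alternative fits, the highest adjusted p in limma was 3.9e-07 for Retnla, 2e-05 for Chil3 and 2.7e-05 for Chil4. With KEAP1 KO CM, 3 of 3 were lower as well, beside 28.8% of all genes. Chil3 there was 1.33, 3.43 and 1.27 TPM with CDDO-Me, 395 times lower, with a log2 difference of -7.91 (SE 0.44) and adjusted p = 3.7e-11. Retnla and Chil4 were listed at 0 in all 3 of the KEAP1 KO CM/CDDO-Me libraries, with adjusted p = 3.1e-19 and 1.2e-13. The same limits on these 2 genes hold there. Over 17 alternative fits, the highest adjusted p in limma was 7e-08 for Retnla, 1.8e-05 for Chil3 and 1.5e-05 for Chil4.

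Among the CDDO-Me libraries, Retnla was listed at 0 in all and Chil4 in all but 1, so that Chil3 was the only member that could be tested there. Against media/CDDO-Me, Chil3 did not pass with WT CM (26.8% of all genes passed), with KEAP1 KO CM (22.6%) or with NRF2 KO CM (0.190%). The 95% interval of the log2 difference of Chil3 was -1.19 to 0.66 for WT CM, -1.19 to 0.66 for KEAP1 KO CM and -1.46 to 0.39 for NRF2 KO CM. Differences within those bounds remain compatible with the data. These 3 comparisons share the media/CDDO-Me libraries. Between KEAP1 KO CM/CDDO-Me and WT CM/CDDO-Me, where 0.0439% of all genes passed, the log2 difference of Chil3 was 0.00 (interval -0.92 to 0.93).

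In control medium and in NRF2 KO CM, Retnla and Chil4 were listed at 0 with and without CDDO-Me, and a fall could not be seen. Chil3 did not pass in control medium, where 6.02% of all genes passed, and was 2.73, 4.56 and 1.39 TPM with CDDO-Me against 1.09, 3.87 and 2.31 TPM with vehicle. It did not pass with NRF2 KO CM either, where 9.61% of all genes passed, and was 1.93, 2.27 and 0.660 TPM with CDDO-Me. The effect of CDDO-Me on Chil3 differed from that in control medium by -8.13 (SE 0.62) on the log2 scale for WT CM, in a test that 15.3% of all genes passed, and by -8.10 (SE 0.62) for KEAP1 KO CM, in one that 14.8% passed. For Retnla and Chil4 the same tests only repeat the fall within each CM, since a level of 0 in control medium cannot fall. Chil3 itself had little room to fall there. For NRF2 KO CM against control medium, and for KEAP1 KO CM against WT CM, 0% of genes passed, and 359 and 224 genes had an unadjusted p under 0.05 in limma. In the second, the difference of 0.58 for Retnla is that of the vehicle libraries, as both CDDO-Me groups were at 0.

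Few genes in the table had as wide a split. A total of 8 genes were above 10 TPM in all 6 libraries of WT/vehicle and KEAP1 KO/vehicle and over 10 times as high in each of these as in any other library: Retnla, Chil3, Arg1, Ccl24, Mgl2, Rnase2a, Scn3a and Tmem26. Rnase2a, Scn3a and Tmem26 were on no list under these symbols and were named after their values were seen. Over the 24 libraries, the 5 genes whose log2 level was most like that of Retnla were Scn3a (Pearson's r = 0.998), Ccl24 (0.997), Chil4 (0.996), Arg1 (0.995) and Tmem26 (0.995). For Chil3 they were Scn3a (0.992), Retnla (0.991), Il31ra (0.990), Chil4 (0.989) and Ccl24 (0.987), and for Chil4 they were Retnla (0.996), Arg1 (0.996), Scn3a (0.995), Cdh1 (0.995) and Ccl24 (0.994). These values describe a split of 6 high and 18 low libraries that all these genes share.

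The relatives of the members were low or were not called. In the resistin family, Retnlb was listed at 0 in 24 of 24 libraries, Retnlg in 23 and Retn, resistin itself, reached 0.330 TPM, so 0 of 3 were tested. In the chitinase family, the acidic chitinase Chia1 and Chil6 were listed at 0 in 24 of 24 libraries, Chit1, the chitinase chitotriosidase, reached 0.0570 TPM, and Chil5 reached 0.501 TPM. The 3 tested relatives were Chid1, Ctbs and Ovgp1, and 0 of 3 passed with either WT CM or KEAP1 KO CM or with CDDO-Me in either CM. Chid1, a protein with a chitinase-like domain, was 39.5 ± 9.19 TPM (SD, n = 3) in WT/vehicle against 26.0 ± 2.33 TPM in media/vehicle, with a log2 difference of 0.63 (SE 0.41) and adjusted p = 0.49. Its adjusted p in limma was 0.012 without replicate 3 of both NRF2 KO groups, 0.032 with only the libraries compared and 0.0012 with array weights, so that its call depended on the fit.

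**Figure D3:**
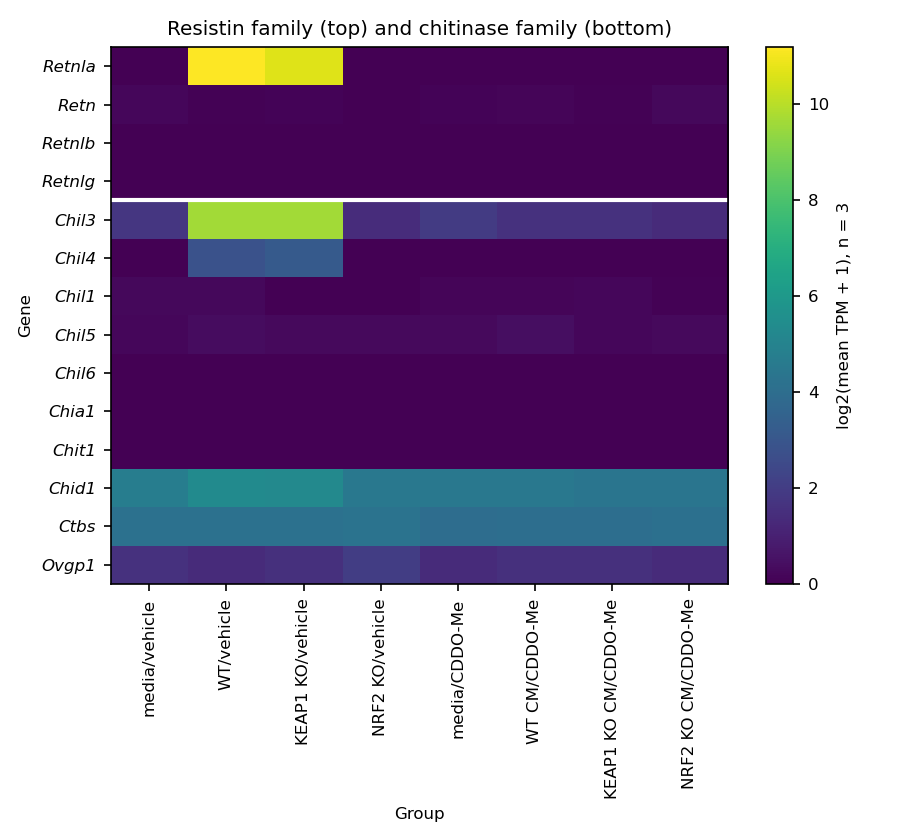
Mean level (n = 3) of the resistin family and of the chitinase family by group, as log2(mean TPM + 1) on the colour scale, with genes as lines and groups as columns. Retnla, Chil3 and Chil4 are high in WT/vehicle and KEAP1 KO/vehicle and dark or nearly so elsewhere, Retnlb, Chil6 and Chia1 are at 0 throughout, and Chid1 and Ctbs are measurable in every group.

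Other secreted products of the IL-4 response were taken as a list of 16. Ear11 was on it but not in the table under that symbol, so it is not counted below. Of 15 tested, 7 rose and 0 fell with WT CM (median log2 difference 0.59, against 0.01 for all genes). With KEAP1 KO CM, 8 rose and 0 fell (median 0.95). Of all genes, 7.23% and 8.06% passed in these comparisons. Ccl24, a chemokine for eosinophils, rose from 1.06 ± 0.398 to 79.8 ± 24.5 TPM with WT CM (SD, n = 3, adjusted p = 3.9e-12) and was 1.02 ± 0.0787 TPM with WT CM and CDDO-Me. Ccl8, a monocyte chemokine, rose from 3.97 ± 0.887 to 225 ± 80.7 TPM with WT CM and was still 86.8 ± 27.2 TPM in WT CM/CDDO-Me, against 2.09 ± 0.766 TPM in media/CDDO-Me (adjusted p = 9.6e-10). In this group of products CDDO-Me lowered 8 and raised 3 with WT CM, and lowered 8 and raised 2 with KEAP1 KO CM, where 27.9% and 28.8% of all genes passed.

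Among cell-bound and intracellular genes of the IL-4 response, 14 of 18 tested rose and 0 fell with WT CM (median log2 difference 2.62). The counts were the same with KEAP1 KO CM (median 2.60). Of all genes tested, 7.23% passed with WT CM and 8.06% with KEAP1 KO CM. Arg1, the arginase that marks alternative activation, rose from 0.172 ± 0.113 to 663 ± 112 TPM with WT CM (SD, n = 3, adjusted p = 1.1e-16) and was 0.125 ± 0.0989 TPM in WT CM/CDDO-Me. Mrc1, the mannose receptor, was 1171 ± 147 TPM in WT/vehicle and 61.5 ± 14.0 TPM in WT CM/CDDO-Me, below the 125 ± 17.6 TPM of media/CDDO-Me (adjusted p = 0.0091). Pdcd1lg2, the checkpoint ligand PD-L2, was 49.4 ± 18.8 TPM in WT/vehicle and 28.2 ± 3.31 TPM in WT CM/CDDO-Me, against 0.204 ± 0.158 TPM in media/CDDO-Me (adjusted p = 1.7e-10). Against media/CDDO-Me, 6 of the 18 genes were higher and 5 lower with WT CM, beside 26.8% of all genes that passed. Chil3, the only member that could be tested there, did not pass.

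**Figure D4:**
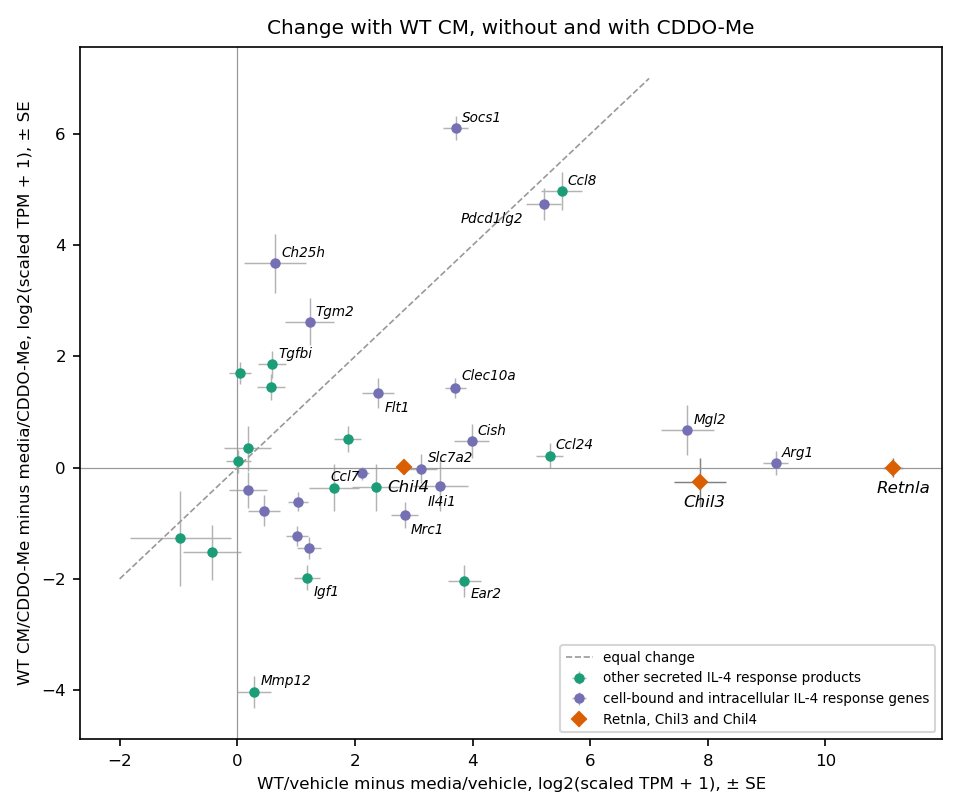
Log2 difference of WT/vehicle minus media/vehicle (horizontal) against WT CM/CDDO-Me minus media/CDDO-Me (vertical) for Retnla, Chil3 and Chil4 (orange) and the tested genes of both IL-4 response lists, with bars of 1 SE. Retnla, Chil3 and Chil4 lie near 0 on the vertical axis, as do Arg1 and Ccl24. Ccl8, Pdcd1lg2 and Socs1 are high on both axes. Socs1, which is also on the list of the interferon gamma response, was 23.7 TPM in WT/vehicle and 116 TPM in WT CM/CDDO-Me. The position of Retnla and Chil4 depends on the pseudocount, as they were listed at 0 in the groups without CM.

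The genes of the IL-4 and IL-13 signal itself went both ways with CDDO-Me. Of 17 tested, 7 rose and 5 fell with CDDO-Me in WT CM (median 0.35, against -0.01 for all genes). In KEAP1 KO CM, 7 rose and 5 fell (median 0.41). All genes went both ways as well. In WT CM 27.9% of them passed (1972 higher, 1837 lower), and in KEAP1 KO CM 28.8% (1973 higher, 1959 lower). In TPM as deposited, Stat6 was 114 ± 2.53 TPM in WT/vehicle and 108 ± 2.68 TPM in WT CM/CDDO-Me (SD, n = 3, adjusted p = 0.82), with a log2 difference of 0.05 after TMM scaling, so that its sign depended on the scaling, and Cebpb was 106 ± 0.887 and 124 ± 9.52 TPM (adjusted p = 0.53). Il4ra rose from 59.7 ± 3.64 TPM in media/vehicle to 121 ± 23.1 TPM in WT/vehicle (adjusted p = 8.6e-06) and to 316 ± 49.6 TPM in WT CM/CDDO-Me (adjusted p = 9.7e-09 against WT/vehicle). Il4 transcript was present in all 24 libraries, at 15.8 ± 2.44 TPM in WT/vehicle and 20.6 ± 3.48 TPM in media/vehicle, and fell to 4.15 ± 1.83 TPM in WT CM/CDDO-Me (adjusted p = 0.002). Il13 reached 0.128 TPM. Irf4, a factor that acts with STAT6, rose with WT CM from 0.989 ± 0.231 to 12.0 ± 5.52 TPM (adjusted p = 2.3e-06) and fell with CDDO-Me to 0.522 ± 0.575 TPM (adjusted p = 6e-08).

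**Figure D5:**
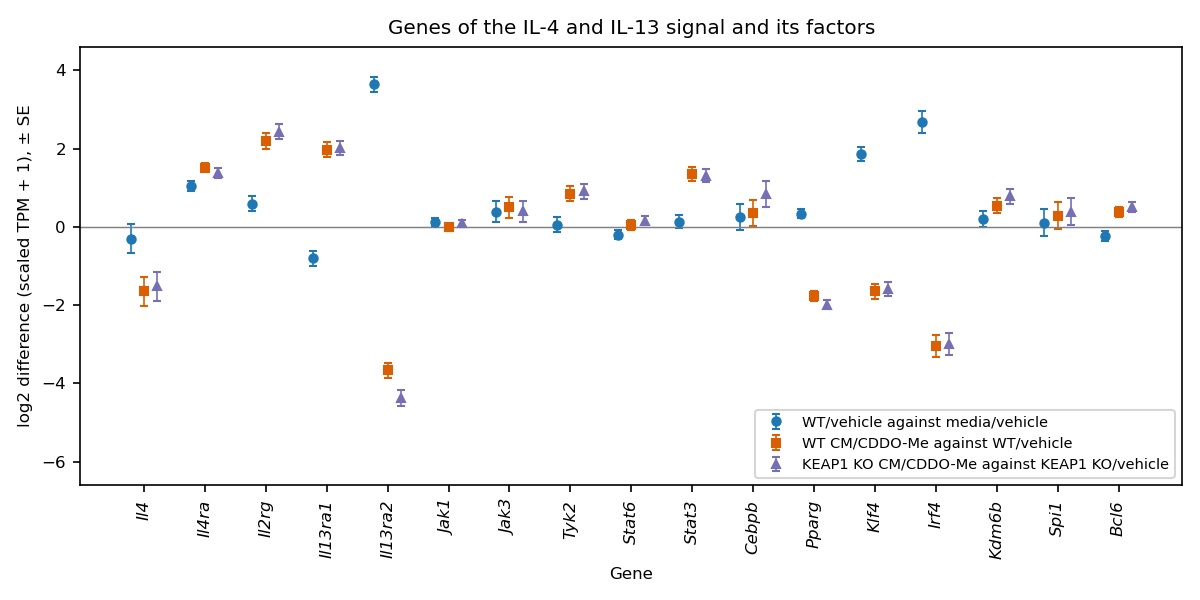
Log2 difference with 1 SE (vertical axis) of 17 genes of the IL-4 and IL-13 signal (horizontal axis) for WT CM against control medium under vehicle, and for CDDO-Me against vehicle in WT CM and KEAP1 KO CM. Il13ra2, Klf4 and Irf4 rise with CM and fall with CDDO-Me, Il4ra and Il2rg rise with CDDO-Me, and Stat6, at -0.19 and 0.05 for WT CM and then CDDO-Me, lies near 0 on this scaled axis.

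Of 6 tested genes for proposed receptors and partners of the products, 2 rose and 0 fell with either WT CM or KEAP1 KO CM (median 0.32 and 0.19), and 1 rose and 3 fell with CDDO-Me in each CM, beside 7.23%, 8.06%, 27.9% and 28.8% of all genes that passed in these comparisons. Il13ra2, a receptor chain that binds IL-13 and has been proposed as a receptor of Chil1, had the pattern of the members, at 12.4 ± 4.45 TPM in WT/vehicle, 21.2 ± 4.96 TPM in KEAP1 KO/vehicle, 0.0237 ± 0.0234 TPM in media/vehicle and 0.0124 ± 0.0214 TPM in WT CM/CDDO-Me (SD, n = 3). All 15 tested genes of the interferon gamma response rose with CDDO-Me in WT CM and in KEAP1 KO CM (medians 3.87 and 3.95). Of all genes, 27.9% and 28.8% passed there. With CDDO-Me, 0 of 15 passed in control medium, beside 6.02% of all genes, and 0 of 15 in NRF2 KO CM, beside 9.61%. Those counts of 0 are near these shares. Of the 15 genes, 2 and 3 had an unadjusted p under 0.05 there (limma). With CM under vehicle, 3 rose and 1 fell for WT CM (median 0.25), beside 7.23% of all genes that passed. For KEAP1 KO CM, 2 rose and 2 fell (median 0.03), beside 8.06%.

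Markers of macrophages and of other cells were summed in each library. All 8 macrophage markers were above 1 TPM on average, with a sum of 14934 to 38385 TPM per library. The 7 eosinophil markers summed to 7.79 to 9.66 TPM in WT/vehicle, 6.15 to 8.15 TPM in KEAP1 KO/vehicle and 7.69 to 13.6 TPM in media/vehicle, and the defining granule genes Epx and Prg2 stayed below 1 TPM on average in every group. The 11 neutrophil markers, cells in which Chil3 is also abundant, summed to 13.6 to 40.0 TPM over the WT/vehicle, KEAP1 KO/vehicle and media/vehicle libraries, 53.9 to 69.1 TPM in WT CM/CDDO-Me, 98.7 to 140 TPM in KEAP1 KO CM/CDDO-Me and 160 to 777 TPM in NRF2 KO CM/CDDO-Me. Without CM, in media/CDDO-Me, they summed to 87.0 to 136 TPM. In WT CM/CDDO-Me the higher sums rested on S100a8 and Mmp8, at 33.5 and 16.8 TPM against 8.72 and 3.09 TPM in WT/vehicle. S100a9 was 9.75 TPM there against 8.25 TPM in WT/vehicle. The 8 mast cell and basophil markers summed to 1.60 to 2.12 TPM in WT/vehicle against 3.90 to 4.26 TPM in media/vehicle. The 7 lymphocyte markers summed to at most 1.44 TPM, and the 6 epithelial or carcinoma markers to 6.90 to 9.87 TPM in WT/vehicle against 13.4 to 16.3 TPM in media/vehicle. The 9 fibroblast markers were present in every group, at 571 to 1167 TPM in WT/vehicle, 806 to 1535 TPM in KEAP1 KO/vehicle, 808 to 1501 TPM in media/vehicle and 218 to 609 TPM in WT CM/CDDO-Me. With CDDO-Me, the 6 dendritic cell markers summed to 100 to 127 TPM in WT CM and 47.0 to 86.2 TPM in KEAP1 KO CM, against 0.998 to 2.02 TPM in WT/vehicle. Nearly all of this was Clec9a, at 105 TPM in WT CM/CDDO-Me, followed by Xcr1 at 3.86 TPM, while Zbtb46 was 0.514 against 0.769 TPM in WT/vehicle, and Flt3, Ccr7 and Siglech were lower than in WT/vehicle as well. The 5 monocyte markers summed to 82.3 to 105 TPM in WT CM/CDDO-Me against 22.4 to 44.9 TPM in WT/vehicle. The part of these cell types in the levels of the members was not tested.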

How the data were processed

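RNA was measured in 24 BMDM libraries, grouped and numbered by their labels. The authors had poly-A libraries sequenced, quantified them with Kallisto on GRCm39 transcripts (annotation release not given in the sources used here), and deposited TPM, the length-corrected number of a gene's transcripts in 1000000, per gene name. The file is named as counts, but each library sums to 1000000 with the 1 line that has no gene name, 0.0199% to 0.0635% of it, which was left out. The depth is unknown from TPM, so no interval or floor that needs it is given, and count tests were not used.

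TPM were scaled by TMM computed without weights (trims of 30% and 5%), and log2(scaled TPM + 1) was fitted with limma 3.58.1 (eBayes with trend) in R 4.3.3, 1 model holding all 8 groups (16 residual degrees of freedom). Testing was two-sided and limited to genes that exceeded 1 TPM in 3 or more libraries, with Benjamini-Hochberg adjustment over all genes. Interaction contrasts compared the effect of CDDO-Me between media. On simulated data for WT/vehicle against media/vehicle over 13307 genes, 70 of 100 genes changed by 1 and 96 of 100 changed by 2 on the log2 scale were called, with 5 calls among unchanged genes. Only genes with a mean log2 level above 2 were changed, so these rates do not cover lower genes. The noise was drawn independently for each library, without deviations shared by libraries of the same replicate number. The members and lists were chosen with earlier results of these data known. The text names the 4 members, up to 6 genes per list and comparison (smallest adjusted p, plus a fixed few such as Arg1, Mrc1, Stat6, Il4, Il4ra and Cebpb), and the 5 genes most like each member, and says where a gene was named after its values were seen.

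Replicate numbers come from the labels. Libraries with the same number deviated together, with a correlation over 0.1 in every pair in 8 of 13 comparisons of 2 groups (0.0622 to 0.719 over all), and a fit with the number as a block was an alternative. Gene positions, transcripts and promoter windows are those of GENCODE on GRCm39, and identity was computed with Biopython 1.88. The alternatives were RLE or no scaling, no filter, a filter of 5 TPM, pseudocounts of 0.1 and 5, eBayes without trend, array weights, the block, only the groups compared, and libraries left out.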

Additional observations from a re-analysis of the deposited data

Results flagged for a closer look

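The effect of CDDO-Me differed between media by a test of the difference itself (limma, adjusted over all genes) in 6 cases. Between WT CM and control medium the adjusted p was 1.1e-08 for Chil3, 3.5e-10 for Chil4 and 9.1e-17 for Retnla. Between KEAP1 KO CM and control medium it was 1.1e-08 for Chil3, 6.2e-11 for Chil4 and 2.5e-16 for Retnla. In control medium Chil3 was at most 4.56 TPM and Retnla and Chil4 were listed at 0, with and without CDDO-Me. For Retnla and Chil4 the test therefore only repeats the fall within each CM, since a level of 0 cannot fall.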

How the results depend on the processing

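The calls of Retnla, Chil3 and Chil4 with WT CM or KEAP1 KO CM, with CDDO-Me in either CM, for WT/vehicle against NRF2 KO/vehicle, and in the interaction contrasts of WT CM or KEAP1 KO CM with control medium held under every alternative run. For KEAP1 KO/vehicle against WT/vehicle, array weights gave 2 called members in place of 0. The cause was not tested. The replicate block changed no call of a member, and 0 members passed for KEAP1 KO/vehicle against WT/vehicle under it. Over all genes, the count for that comparison moved from 0 to 2 with the block and to 975 with array weights. The block also moved the count over all genes from 988 to 1743 for WT CM and from 1101 to 1784 for KEAP1 KO CM. It moved from 1449 to 2550 for WT/vehicle against NRF2 KO/vehicle and from 822 to 1464 for CDDO-Me in control medium. For CDDO-Me in NRF2 KO CM it moved from 1313 to 1986, and for NRF2 KO CM/CDDO-Me against media/CDDO-Me from 26 to 160. Array weights moved these counts further, to 4114, 5012, 3395, 3523, 2782 and 754, and those for CDDO-Me in WT CM and KEAP1 KO CM from 3809 to 7127 and from 3932 to 7006.

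The uncalled log2 differences of Chil3 near 0 changed sign with the setting. For KEAP1 KO/vehicle against WT/vehicle the difference was 0.038 without scaling, 0.11 with array weights and -0.39 to 0.38 with 1 library left out. For NRF2 KO CM/CDDO-Me against NRF2 KO/vehicle it was 0.33 with array weights, 0.27 without replicate 3 of both NRF2 KO groups and -0.25 to 0.23 with 1 library left out. For the difference of CDDO-Me effects between NRF2 KO CM and control medium these values were 0.063, 0.077 and -0.52 to 0.071. Between KEAP1 KO CM and WT CM it was -0.015 without scaling and -0.38 to 0.40 with 1 library left out. For KEAP1 KO CM/CDDO-Me against WT CM/CDDO-Me it was -0.0086 with a pseudocount of 5 and -0.30 to 0.37 with 1 left out. With 1 left out it also ran from -0.12 to 0.48 for media/CDDO-Me against media/vehicle, and against media/CDDO-Me from -0.63 to 0.037 for WT CM and from -0.56 to 0.015 for KEAP1 KO CM.

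In the chitinase family, Chid1 alone was called (1 in place of 0) with array weights, with only the groups compared and without replicate 3 of both NRF2 KO groups, in each of the comparisons of WT CM and KEAP1 KO CM with control medium and of CDDO-Me with vehicle in both. Of the IL-4 and IL-13 signal genes, 10 were called with array weights and 9 without those NRF2 KO libraries for WT CM, in place of 5, and 9, 7 and 7 for KEAP1 KO CM with array weights, with only the groups compared and without those libraries, in place of 4. Of the proposed receptors, 4 in place of 2 were called for WT CM with array weights, and 2 to 4 for CDDO-Me in KEAP1 KO CM with 1 library left out, with 2 without KEAP1 KO/vehicle replicate 3 or KEAP1 KO CM/CDDO-Me replicate 2. Of the interferon gamma genes, 2 in place of 4 were called for WT CM with a pseudocount of 5, 7 with array weights and 1 to 5 with 1 library left out, with 1 without media/vehicle replicate 1 or 3 or WT/vehicle replicate 3 and 2 without media/vehicle replicate 2. For KEAP1 KO CM, 2 were called with no filter or a pseudocount of 5 and 1 to 2 with 1 library left out, with 1 without media/vehicle replicate 1 or 3 or KEAP1 KO/vehicle replicate 2, and 2 without media/vehicle replicate 2 or KEAP1 KO/vehicle replicate 1 or 3. TMM scaling moved mean Chil4 in KEAP1 KO/vehicle from 8.08 to 7.74 TPM. TPM keep no depth, so the precision of low values such as those of Chil1 cannot be given.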
